A study of Mus musculus with 2 samples.

Results

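The 10 genes described here are the 4 Notch receptors (Notch1, Notch2, Notch3 and Notch4), the ligands Jag1 and Dll4, and the transcriptional repressors Hes1, Hey1, Hey2 and Heyl, which are textbook targets of the pathway. They were chosen by name from the 31053 genes in the count matrices. The cells were primary vascular smooth muscle cells (VSMCs) from the thoracic aorta of wildtype C57BL6/N mice, grown in full medium for 5 days and profiled by scRNA-seq with the 10x Genomics 3′ v3 chemistry. There were 2 libraries, biological replicates 1 and 2 of this 1 condition, each from a preparation that pooled the aortae of several mice. No library was treated, so the comparisons below are between classes of cells in the same culture and the libraries are the replicates.

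Notch receptors are activated by ligands on a neighboring cell. Cleavage by ADAM proteases and then by γ-secretase frees the intracellular domain, which joins RBPJ and Mastermind proteins in the nucleus and switches on Hes and Hey genes. In arteries, Notch3 is known as the receptor of VSMCs and pericytes, Jag1 as a ligand of both endothelial and smooth muscle cells, and Dll4, Notch1 and Notch4 as endothelial components of arterial identity. mRNA levels, which are all that was measured here, do not report receptor cleavage.

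The libraries held 4866 and 6824 cells with at least 3000 unique molecular identifiers (UMIs, counted transcripts), with median depths of 22234.5 and 16310 UMIs, and shared 9 cell barcodes. Cells were split into classes by marker genes that are not among the 10. Myh11, the smooth muscle myosin heavy chain of the contractile state, defined Myh11-high cells (at least 5 UMIs, 313 and 574 cells) and Myh11-low cells (1 or none, 2771 and 4152 cells). Cycling cells (1450 and 1651) had at least 6 UMIs summed over Mki67, Top2a and Cenpf, and endothelial-like cells (102 and 141) had at least 2 UMIs of at least 2 of Pecam1, Cdh5, Cldn5 and Gja4. The summed level of 7 contractile markers was 24147 and 25921 CPM (UMIs of a gene scaled to the same total in every sum of cells) in Myh11-high cells against 6169 and 3387 CPM in Myh11-low cells. That of 7 markers of modulated SMCs was 2985 and 2677 CPM in Myh11-high against 3940 and 5165 CPM in Myh11-low cells. Of these sums, S100a4 made up 2035 and 2278 against 2750 and 3732 CPM. Spp1 alone went the other way, at 473 and 164 CPM in Myh11-high against 99.0 and 78.6 CPM in Myh11-low cells. The summed level of 4 markers of adventitial fibroblasts was 30.6 and 9.16 CPM in Myh11-high against 71.0 and 62.9 CPM in Myh11-low cells. No lineage label was available, so whether the Myh11-low class held cells other than modulated SMCs was not tested. The summed level of 10 endothelial markers was 2936 and 3152 CPM in the endothelial-like class and 49.8 to 83.6 CPM in the 3 SMC classes. Levels below are CPM of the UMIs summed over all cells of a class in 1 library. Summed UMIs cannot tell fewer expressing cells from less RNA per cell, so shares of cells with a UMI are given where they help, and intervals cover counting error only. Without a number of separate cultures beyond these libraries, p-values of the fit without a block measure the spread between the 2 preparations. Those with the library as a block leave that spread out and measure how far differences between classes disagree between the same 2 libraries.

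The promoters of Hey2, Jag1 and Dll4 are shown because they hold short words that the pathway's own DNA-binding proteins are known to read. The 250 bases before the RefSeq start (GRCm38.p6) were searched on both strands for the RBPJ word TGGGAA, the HES/HEY word CACGCG and the E-box CACGTG, and matches are in capitals. A gene start was available for 7 of the 10 genes (Notch1, Notch2, Notch3, Notch4, Jag1, Dll4 and Hey2).
Hey2, chr10:30842784-30843033, minus strand: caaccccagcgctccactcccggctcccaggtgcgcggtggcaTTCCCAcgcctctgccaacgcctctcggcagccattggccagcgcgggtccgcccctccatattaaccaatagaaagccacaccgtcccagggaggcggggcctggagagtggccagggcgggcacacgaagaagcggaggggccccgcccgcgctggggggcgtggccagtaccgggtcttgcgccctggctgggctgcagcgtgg
Jag1, chr2:137116521-137116770, minus strand: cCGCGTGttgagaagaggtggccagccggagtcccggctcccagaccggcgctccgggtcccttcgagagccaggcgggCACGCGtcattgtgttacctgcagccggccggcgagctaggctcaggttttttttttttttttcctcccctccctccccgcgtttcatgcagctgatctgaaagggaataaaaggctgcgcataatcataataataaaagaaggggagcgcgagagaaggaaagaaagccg
Dll4, chr2:119325534-119325783, plus strand: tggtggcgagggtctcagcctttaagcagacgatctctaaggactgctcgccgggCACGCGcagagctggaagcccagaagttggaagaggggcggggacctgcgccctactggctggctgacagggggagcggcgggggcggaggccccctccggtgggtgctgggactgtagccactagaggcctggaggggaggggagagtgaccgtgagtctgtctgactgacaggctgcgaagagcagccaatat
The Hey2 promoter was the 1 of 7 with the RBPJ word, which began 207 bases before the start on the strand opposite the gene and which 21.6% of 32851 promoters hold. CACGCG stood in 3 of the 7, at 249 and 171 bases before the start of Jag1, 195 before Dll4 and 42 before Notch2, against 7.62% of all promoters. CACGTG, present in 6.02% of promoters, was in none of the 7. A match of these letters is a description of the window, not a bound site.

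Notch3, the VSMC receptor, differed between the libraries in every SMC class. It stood at 29.6 CPM in Myh11-high, 19.7 CPM in Myh11-low and 20.5 CPM in cycling cells of replicate 1, and at 9.33, 9.91 and 9.90 CPM in replicate 2. Every class of replicate 1 was therefore above every class of replicate 2 among the SMCs, by 3.17-, 1.99- and 2.07-fold. Cells with a Notch3 UMI made up 26.0% and 12.1% of Myh11-low cells, and 6.02% and 3.38% after each cell was thinned to 3000 UMIs. Hes1, the general Notch target that other signals also induce, followed the same order with 216, 198 and 213 CPM in replicate 1 and 55.8, 84.0 and 85.0 CPM in replicate 2. Of 8751 genes with a mean of at least 5 CPM in each SMC class, 3.68% were at least 1.5-fold higher in replicate 1 in all 3 classes and 1.95% in replicate 2. Among the 6 of the 10 genes that met this level, Notch3 and Hes1 belonged to the first group and none to the second, while Notch1, Notch2, Jag1 and Hey2 belonged to neither. The libraries are the 2 replicates of 1 group, so this contrast has no test.

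Notch1 and Notch2 lay closer together in the libraries. Notch1 stood at 11.4 and 8.05 CPM in Myh11-high, 15.5 and 14.7 CPM in Myh11-low and 23.2 and 20.4 CPM in cycling cells of replicates 1 and 2. It was lowest in Myh11-high and highest in cycling cells in both libraries, and how many of all genes had such an order was not counted. Notch2, which shares ligands with Notch1, had the same order in both libraries but stayed between 11.0 and 14.1 CPM in all SMC classes. Notch4, known from endothelium, was at 0.188 to 0.508 CPM in the SMC classes, where 0.424% to 1.45% of cells had a UMI. Of the ligands, Jag1 was found at 41.1 to 48.4 CPM in every SMC class, with a UMI in 39.4% to 59.7% of cells. Dll4 had no UMI in Myh11-high cells, 2 and 1 UMIs in Myh11-low cells and 2 and 4 UMIs in cycling cells.

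**Figure D1:**
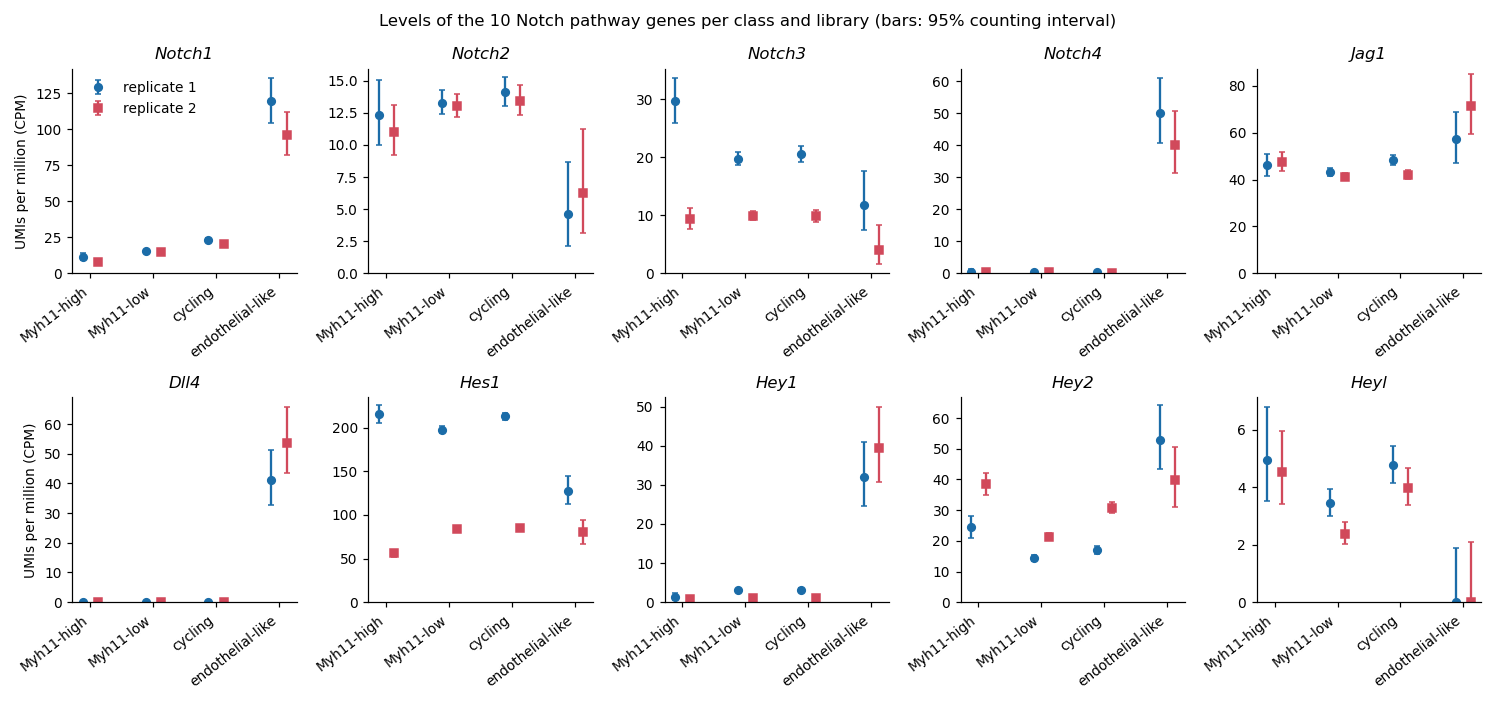
Levels in CPM of each of the 10 genes in the 4 classes, with circles for replicate 1, squares for replicate 2 and bars for the 95% Poisson interval of the count. Notch1, Notch4, Dll4 and Hey1 rise in the endothelial-like class (Notch1 to 119 and 95.9 CPM), Heyl is at 0 there, and Notch3 and Hes1 separate by library.

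Whether pathway genes differ with the level of Myh11 was asked by testing Myh11-low against Myh11-high sums with edgeR's quasi-likelihood test (Benjamini-Hochberg adjustment over 14095 genes). None of the 10 genes passed an adjusted p of 0.05. At an unadjusted p under 0.05, 2542 genes passed, and DESeq2 also called none of the 10. By the edgeR test 0.873% of all genes were higher and 2.43% lower. The same test with the library as a block, which compares classes within each culture, called 3 of the 10, where 11.2% of all genes were higher and 11.6% lower. Notch1 was higher in Myh11-low cells (log2 fold change 0.57 ± 0.13 SE, adjusted p = 0.0169 with the block and 0.217 without). Hey2, the Hey repressor known from arterial development, was lower (-0.89 ± 0.22, adjusted p = 0.0239 with the block and 0.244 without). Heyl, a Hey repressor of smooth muscle and pericytes, was lower as well (-0.82 ± 0.21, adjusted p = 0.0335 with the block and 0.263 without). These directions were the same in both libraries. On simulated counts that kept the library difference, the blocked fit made more false calls than its adjusted p allows, and the fit without a block did not. The fit without a block counts that difference as spread, so its result there was largely set in advance and cannot rank the fits. Hey2 stood at 24.4 and 38.4 CPM in Myh11-high against 14.4 and 21.4 CPM in Myh11-low cells, and Heyl at 4.96 and 4.54 against 3.44 and 2.38 CPM. The median log2 fold change was -0.04 over the 10 genes and 0.03 over all genes without the block.

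Jag1 (log2 fold change -0.23 ± 0.15 SE), Notch2 (0.09 ± 0.17) and Notch3 (-0.46 ± 0.67) did not pass in either fit. Notch3 went in opposite directions in the libraries, with 0.665 and 1.06 times the Myh11-high level in Myh11-low cells. Hes1 did so too, with 0.919 and 1.51 times. Hey1, the endothelial and smooth muscle Hey repressor, was at 1.27 and 0.685 CPM in Myh11-high and 3.0 and 1.0 CPM in Myh11-low cells, and did not pass.

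**Figure D2:**
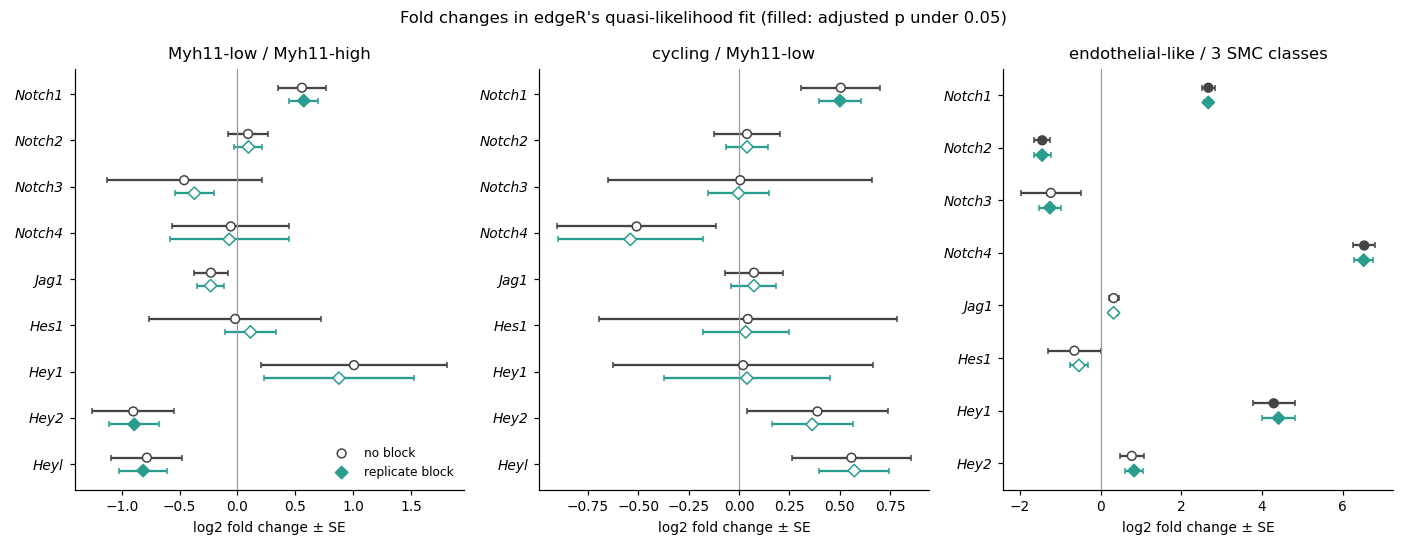
Log2 fold changes with their SE for the 3 comparisons, without a block (circles) and with the library as a block (diamonds), filled where the adjusted p was under 0.05. Dll4 is left out of all panels and Heyl of the endothelial-like panel because a class had few or no UMIs. Notch1 (0.57 with the block), Hey2 (-0.89) and Heyl (-0.82) are filled in the first panel in the blocked fit alone.

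Finer bins of Myh11 UMIs, in cells below the cycling score, showed how these genes ran along the contractile state. Notch1 fell from 15.5 CPM at 0 Myh11 UMIs to 10.3 CPM at 20 or more in replicate 1, and from 14.7 to 6.00 CPM in replicate 2. Hey2 ran the other way, though not evenly, at 14.0, 17.9, 10.7, 18.0, 20.5 and 34.1 CPM over the 6 bins in replicate 1 and from 21.3 CPM to 42.9 CPM at 10 to 19 UMIs and 32.0 CPM at 20 or more in replicate 2. Heyl had its lowest level in the cells without Myh11 (3.12 and 2.10 CPM) and stood at 5.72 and 5.77 CPM with a single Myh11 UMI and at 7.30 and 6.03 CPM with 2 to 4. Above that it was at 6.32, 4.40 and 3.90 CPM in replicate 1 and at 3.1, 6.81 and 2.50 CPM in replicate 2, so that its level at 20 or more UMIs was close to that without Myh11. Notch3 was not monotonic. In replicate 1 it was 17.7 CPM without Myh11, 34.3, 37.7 and 38.6 CPM in the next 3 bins, and 28.3 and 20.9 CPM in the top bins. In replicate 2 it was 9.32 CPM without Myh11 and 17.1 CPM with 1 UMI, and lay between 7.66 and 13.5 CPM above that. Median depth rose across the bins from 19679.5 to 27814 and from 14535.5 to 22018 UMIs, and its part in these gradients was not tested.

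**Figure D3:**
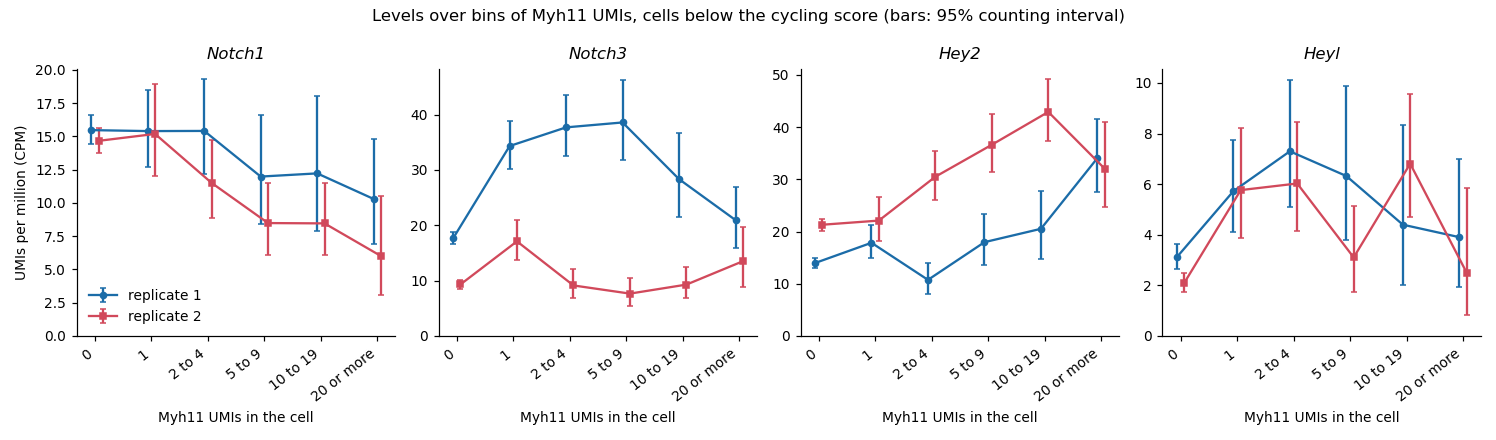
Levels in CPM of Notch1, Notch3, Hey2 and Heyl over bins of Myh11 UMIs per cell, for replicate 1 (circles) and replicate 2 (squares), with 95% Poisson intervals. Notch1 falls (15.5 to 10.3 and 14.7 to 6.00 CPM) and Hey2 is higher in the top bin than without Myh11 (34.1 against 14.0 and 32.0 against 21.3 CPM), and Notch3 in replicate 1 peaks in the middle bins at 38.6 CPM.

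Heyl was more abundant in cells that held a Notch3 UMI. In Myh11-low cells with a Notch3 UMI (721 and 501 cells) it was at 7.65 and 9.71 CPM, and in those without (2050 and 3651 cells) at 1.82 and 1.36 CPM. In Myh11-high cells the levels were 9.58 and 19.2 CPM with a Notch3 UMI and 2.38 and 2.53 CPM without. The Heyl ratios were 4.2, 7.13, 4.03 and 7.60. Its counting intervals did not overlap in any of the 4 pairs, which was also so for Jag1, and how many of all genes did so was not counted. Median depths were close in the Myh11-low cells with and without Notch3 (19912 and 19643.5 UMIs in replicate 1, 13452 and 14648 in replicate 2). Hey1 was also higher in Myh11-low cells with Notch3, at 5.00 against 2.24 CPM and at 1.94 against 0.875 CPM, the latter pair with counting intervals that touched. Of 11828 genes with a mean of at least 1 CPM in Myh11-low cells, 0.161% were at least 2-fold higher with a Notch3 UMI in both libraries, and Heyl and Hey1 were 2 of these 19 genes.

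Jag1, Notch1, Notch2, Hes1 and Hey2 had smaller ratios between cells with and without Notch3 in the Myh11-low class. Jag1 was 1.31- and 1.45-fold higher with Notch3 in Myh11-low cells, and 2.31- and 1.67-fold higher in Myh11-high cells, where it stood at 72.4 and 73.4 CPM. Notch1 was 1.34- and 1.51-fold higher in Myh11-low and 1.96- and 1.73-fold higher in Myh11-high cells. Notch2 (0.941 and 1.01) and Hey2 (1.18 and 0.898) had ratios near 1 there. For Hes1 the libraries differed, with ratios of 1.02 and 1.24 in Myh11-low and 0.993 and 1.44 in Myh11-high cells. Its counting intervals with and without Notch3 overlapped in replicate 1 and not in replicate 2. Among the Hey repressors, Heyl and Hey1 but not Hey2 were thus above 2-fold in Myh11-low cells of both libraries.

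Other genes with the Notch3 pattern were ranked by their smallest ratio over both libraries and both Myh11 classes, a ranking chosen after values were seen. Among 9262 genes with a mean of at least 5 CPM, the 5 at the top were Rgs5, a G-protein regulator used as a pericyte marker, Fap, Agt, Col5a3 and Ednra. Rgs5 was at 152 and 221 CPM in Myh11-low cells with Notch3 and 64.5 and 93.3 CPM without. In Myh11-high cells it was at 374 and 298 CPM with Notch3 and 34.9 and 54.8 CPM without. Ednra, the endothelin receptor of smooth muscle, was at 7.77 and 11.3 against 3.30 and 6.12 CPM in Myh11-low cells. These are cells of the same 2 libraries split by 1 gene, so the values are a description with no test.

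**Figure D4:**
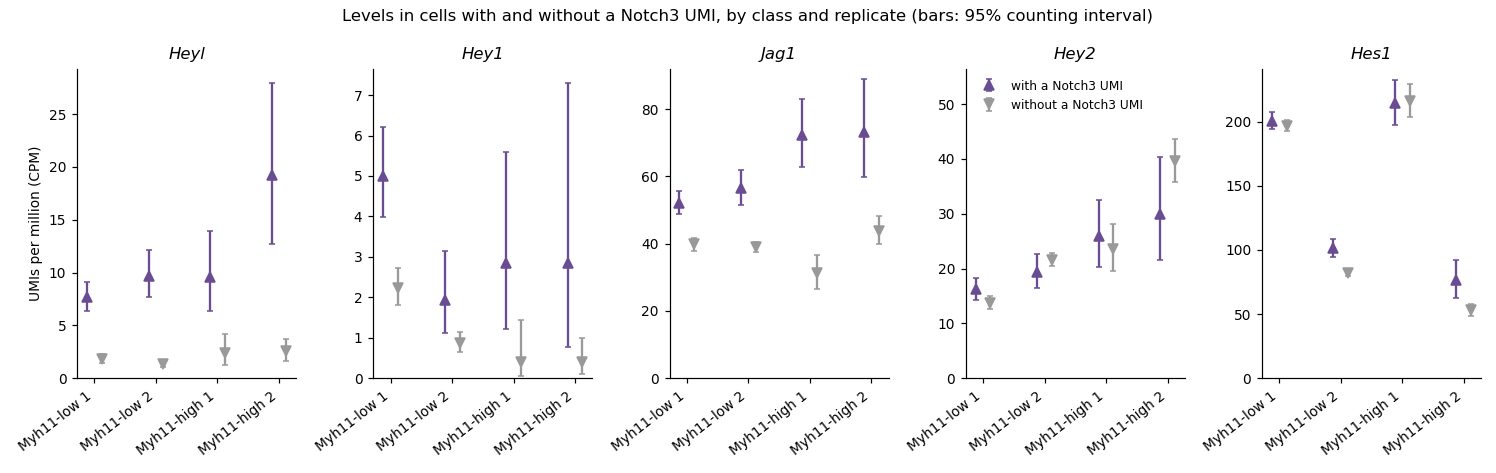
Levels in CPM of Heyl, Hey1, Jag1, Hey2 and Hes1 in cells with (triangles up) and without (triangles down) a Notch3 UMI, for each Myh11 class and replicate, with 95% Poisson intervals. Heyl is higher with Notch3 in all 4 pairs (4.03- to 7.60-fold). In Myh11-low cells Hey2 is near 1 to 1, and Hes1 is so in replicate 1 alone.

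Over the 8 class sums, the likeness of patterns was measured by Pearson's r of log2(CPM + 1) among 8062 genes with a mean of at least 10 CPM, and this too is a description over sums that share libraries. The genes most like Notch3 were Eno3 (r = 0.98), Crip1, Rpn2, Pygb and Agbl3. Those most like Heyl were Rcn2 (0.99), Lmna, Pmp22, 1110008F13Rik and Sspn. Heyl was at 0 in both endothelial-like sums and at 2.38 to 4.96 CPM in the SMC sums, so its r mostly follows that contrast. The genes most like Jag1 were Ppp1r9b (0.97), Rcc1l, Spag7, Rbm42 and Tspan12.

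Cycling cells were compared with Myh11-low cells to ask whether pathway genes change with proliferation. None of the 10 genes passed in edgeR's test, in which 4.89% of all genes were higher and 0.227% lower and 2178 genes had an unadjusted p under 0.05, and DESeq2 called none of the 10 either. Notch1 was 1.5- and 1.39-fold higher in cycling cells of the libraries, and passed with the library as a block (log2 fold change 0.50 ± 0.10 SE, adjusted p = 0.0137). With that block 13.7% of all genes were higher and 8.19% lower. Heyl stood at 4.76 and 3.98 CPM in cycling cells, above Myh11-low in both libraries, with an adjusted p of 0.0603 with the block. Hey2 was at 17.0 and 30.8 CPM and did not pass. Of the cycling cells, 160 and 305 had at least 5 Myh11 UMIs.

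The endothelial-like cells, 2.10% and 2.07% of all cells, differed from the SMC classes in part of the receptors, ligands and targets. Against the mean of the 3 SMC classes, 6 of the 10 genes passed in edgeR's test, 4 higher and 2 lower, where 11.6% of all genes were higher and 12.0% lower. Of these 6, Dll4 reached the minimum count only through the endothelial-like sums and Heyl only through the SMC sums, so both had to differ and are given as values without a p. Notch1 stood at 119 and 95.9 CPM, with a UMI in 78.4% and 62.4% of the cells (log2 fold change 2.67 ± 0.15 SE, adjusted p = 7.47e-05). Notch4 was at 49.9 and 40 CPM (6.54 ± 0.28, adjusted p = 2.07e-05). Dll4, the arterial and tip cell ligand, was at 41.3 and 53.7 CPM. That was 108- and 209-fold the level in Myh11-high cells with their zero counts set to 3 per library. Hey1 was at 32.1 and 39.4 CPM (4.29 ± 0.52, adjusted p = 0.00184). Notch1, Notch4 and Hey1 lay above every SMC sum in both libraries. So did Jag1 (57.1 and 71.4 against at most 48.4 CPM) and Hey2 (53.0 and 40.0 against at most 38.4 CPM), which did not pass in this test. How many of all genes lay above every SMC sum was not counted. Counting intervals overlapped for Jag1 in replicate 1 (47.0 to 68.7 against 46.4 to 50.5 CPM in cycling cells). Those of Hey2 overlapped in replicate 2 (31.2 to 50.5 against 35.0 to 42.2 CPM in Myh11-high cells). Within cycling cells, Jag1 was at 59.9 CPM with 2 to 4 Myh11 UMIs in replicate 1, and Hey2 at 47.0 CPM with 5 to 9 in replicate 2. The calls were also made when Gja4, itself an arterial gene, was left out of the rule for the class.

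Notch2 and Heyl were the genes that passed in the other direction. Notch2 was at 4.59 and 6.28 CPM in the endothelial-like class, from 9 and 11 UMIs (-1.45 ± 0.20, adjusted p = 0.00302). Heyl had no UMI in 102 and 141 cells, which allows a share of cells with a UMI of up to 2.94% and 2.13% and a level of up to 1.53 and 1.71 CPM. The share limits cells with a UMI at this depth, not cells that express the gene. At the upper limits of 1.53 and 1.71 CPM, Heyl was 3.24- and 2.65-fold lower than in Myh11-high cells. It was 2.25- and 1.39-fold lower than in Myh11-low cells. These ratios leave out the counting error of the SMC levels. The counting intervals of the endothelial-like class (up to 1.88 and 2.11 CPM) lay below those of Myh11-high cells (from 3.52 and 3.40 CPM). They lay below that of Myh11-low cells in replicate 1 (from 2.98 CPM) and overlapped it in replicate 2 (from 2.03 CPM). With the library as a block, 16.4% of all genes were higher and 20.3% lower, and Hey2 (0.83 ± 0.23, adjusted p = 0.0269) and Notch3 (-1.26 ± 0.27, adjusted p = 0.00929) passed as well. Without the block their adjusted p-values were 0.113 and 0.274. Notch3 stood at 11.7 and 4.0 CPM in the endothelial-like class, from 23 and 7 UMIs. Jag1, at 57.1 and 71.4 CPM, and Hes1, at 128 and 80.0 CPM, did not pass in either fit.

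Genes listed as markers of other cells had UMIs in the endothelial-like barcodes. The summed level of the 7 contractile markers was 45.2% and 58.1% of that in Myh11-low cells, with Myocd lowest (31.2%) and Des highest (220%) in replicate 1, and Des lowest (13.9%) and Cnn1 highest (233%) in replicate 2. That of 7 markers of modulated SMCs was 60.5% and 49.98%, with Pdgfra lowest at 26.7% and 16.5% and Vcam1 highest at 528% and 554%. The 3 pericyte markers summed to 28.1% and 27.5%. None of these 17 genes was at 0 in either library. Notch2 was at 34.5% and 48.1% of its Myh11-low level and Notch3 at 59.5% and 40.3%. Whether these UMIs were RNA of other cells was not tested. Nor was the part of such RNA in the Notch2, Notch3 and Hes1 levels of the endothelial-like class. In the other direction, Pecam1 was in Myh11-low cells at 0.0735% and 0.0630% of its endothelial-like level, in a class from which cells with several endothelial UMIs had been removed. Per 100 Pecam1 UMIs there were 6.27 and 7.89 Dll4 UMIs in the endothelial-like and 6.90 and 3.45 in the Myh11-low class, the latter from 2 and 1 UMIs. For Notch4 the values were 7.59 and 5.88 against 96.6 and 110.3, and for Hey1 4.88 and 5.79 against 620.7 and 234. Pecam1 is a gene of the rule for the endothelial-like class, and the Myh11-low ratios rest on the 29 Pecam1 UMIs left in each library. The ratios therefore cannot tell where the Dll4, Notch4 and Hey1 UMIs of Myh11-low cells came from, which was not tested.

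UMIs of receptor and ligand genes were found in the same endothelial-like cells. A UMI of Notch1 or Notch4 was found in 85 of 102 and 102 of 141 cells, and of the cells with Dll4 40 of 41 and 39 of 45 also had 1 of these receptors. Cells with Dll4 had more Notch4 than cells without (90.8 against 24.7 CPM and 58.1 against 30.0 CPM, the latter with slightly overlapping counting intervals). Notch1 was at 171 against 87.3 CPM in replicate 1, and at 103 against 91.9 CPM, with overlapping counting intervals, in replicate 2. Hey1 was higher with Dll4, at 52.1 against 19.8 CPM and at 63.0 against 26.5 CPM. Hey2 was at 88.1 against 31.3 CPM in replicate 1, and at 50.1 against 34.5 CPM, with overlapping counting intervals, in replicate 2. Jag1 was at 70.8 against 48.6 CPM and 69.4 against 72.5 CPM, with overlapping intervals in both libraries. Hes1 ran from 81.4 against 157 CPM in replicate 1 to 85.6 against 76.9 CPM in replicate 2 and so had no common direction. Median depths with and without Dll4 were 15683 and 14002 UMIs in replicate 1 and 12084 and 10166.5 in replicate 2, and the part of depth in these shares was not tested.

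Of 60 other genes of the pathway, 55 had enough counts to be tested. In Myh11-low against Myh11-high cells 1 of the 55 was lower and none higher, where 2.43% and 0.873% of all genes were, with a median log2 fold change of 0.09 against 0.03 over all genes. The gene was Nrarp, a feedback inhibitor that Notch induces (-2.95 ± 0.48, adjusted p = 0.0288), which rested on 8 and 8 UMIs in Myh11-high and 6 and 8 in Myh11-low cells. The block called 6 higher and 5 lower, close to its 11.2% and 11.6% over all genes. Among the proteases, Adam17, which sheds receptor ectodomains, went from 22.2 and 14.9 CPM in Myh11-high to 44.0 and 41.4 CPM in Myh11-low cells (1.13 ± 0.25, adjusted p = 0.0636 without and 0.00105 with the block), while Adam10 did not pass (0.29 ± 0.13). Among the nuclear partners, Maml3, a Mastermind coactivator, was at 3.69 and 2.31 against 8.19 and 6.32 CPM (1.21 ± 0.32, adjusted p = 0.0993 without and 0.00368 with the block), and Rbpj did not pass (0.32 ± 0.17). Of the receptor turnover genes, Dtx4 (1.23 ± 0.46) and Aak1 (0.30 ± 0.13) passed with the block alone, at adjusted p-values of 0.0305 and 0.0452. The other ligands Jag2 (-2.25 ± 1.07) and Dlk1 (0.59 ± 0.53), and Pofut1 (0.47 ± 0.20) and Neurl1a (1.14 ± 0.69) of the glycosyltransferase and ligand endocytosis group, passed in neither fit. Gja5, an arterial connexin, had 0 and 26 UMIs in Myh11-high cells (0 and 2.23 CPM) and 4 and 6 UMIs in Myh11-low cells (0.0667 and 0.0887 CPM). It passed as lower with the block (-3.95 ± 0.99, adjusted p = 0.0275), but was lower in replicate 2 alone and went the other way in replicate 1.

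In cycling against Myh11-low cells, 2 of the 55 genes were higher and 1 lower, against 4.89% and 0.227% of all genes. They were named after their values were seen. Neurl1b, an E3 ligase that promotes ligand endocytosis, stood at 5.54 and 8.67 CPM in cycling and 0.784 and 0.473 CPM in Myh11-low cells (3.46 ± 0.63, adjusted p = 0.0259). Nrarp was higher (2.04 ± 0.40, adjusted p = 0.0348), against the few Myh11-low UMIs given above, and was also higher in Myh11-high than in Myh11-low cells. The cycling class held 160 and 305 cells with at least 5 Myh11 UMIs, and their part in the Nrarp change was not tested. Psen2, a γ-secretase subunit, was lower (-0.84 ± 0.17, adjusted p = 0.0393).

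In the endothelial-like class 19 of the 55 genes were higher and 3 lower, against 11.6% and 12.0% of all genes. Of the 19, Jag2, Mfng, Dtx1 and Gja5 reached the minimum count only through the endothelial-like sums and so had to differ. The other 15 were among 49 genes that reached it in both kinds of sum. The 19 higher genes were 2 of 4 ligands, 4 of 9 glycosyltransferase and ligand endocytosis genes, 5 of 10 proteases and their partners, 1 of 12 nuclear factors, 2 of 10 turnover genes and 5 of 10 other targets. These counts include the genes that had to differ, Jag2 (ligands), Mfng (glycosyltransferases), Dtx1 (turnover) and Gja5 (other targets). The largest fitted changes were in Mfng, a Fringe glycosyltransferase that tunes ligand choice (40.3 and 30.8 CPM, with 0 to 2 UMIs in each SMC sum), in Jag2 (27.0 and 21.7 CPM) and in Nrarp (74.4 and 107.9 CPM, 7.80 ± 0.23, adjusted p = 5.26e-06). Of these, Mfng and Jag2 had to differ, and Nrarp reached the minimum count in both kinds of sum. The 3 lower genes were Rbpj (-1.13 ± 0.15, adjusted p = 0.00280), the ubiquitin ligase Nedd4 and Pdgfrb, the mural cell growth factor receptor.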

How the data were processed

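UMI counts per gene and barcode were measured in 2 libraries of wildtype aortic VSMCs at day 5. The authors deposited whole-number counts for all barcodes, made with Cell Ranger against mm10 and neither normalized nor filtered for cells. The submitters' processing notes name version 3.0.2, and the matrix headers 3.0.2 (replicate 1) and 3.1.0 (replicate 2). The matrices summed to 127949633 and 132561822 UMIs.

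A barcode counted as a cell if it held 3000 or more UMIs from 300 or more genes and if mitochondrial UMIs were below 20%, the limits of the study's methods. No doublet caller was run, and 4 and 3 endothelial-like cells had at least 5 Myh11 UMIs. Cells with 2 to 4 Myh11 UMIs were not in the fit. Classes were exclusive, in the order endothelial-like, cycling, Myh11. UMIs were summed per library and class, giving 8 sums, filtered with filterByExpr (14095 genes, all 10 members among them), scaled by TMM and tested with edgeR 4.0.16 (quasi-likelihood, R 4.3.3). DESeq2 1.42.0 was an alternative. Shares have exact (Clopper-Pearson) and levels exact Poisson 95% intervals, and a count of 0 was given an upper limit of 3 counts. The scripts were tested on simulated data.

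The replicate number names the culture, so that the 4 classes of a library are paired. Library differences correlated between classes at Pearson's r of 0.51 to 0.91 over 8070 genes. The libraries themselves differed by more than sampling noise (median chi-square 13.4 per gene over 15476 genes).

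The members, gene lists and tests were chosen with earlier results of these data known. All members are named. Of the other pathway genes, the 2 of each role with the smallest adjusted p in Myh11-low against Myh11-high cells, the 3 with the largest change in the endothelial-like class and the 5 genes most like Notch3, Heyl and Jag1 are named, and genes named for another reason are so described. Alternatives covered the block, scaling, filters, depth minimum, class rules and leaving out each sum or library.
Gene identifiers were matched to GENCODE M21 of GRCm38 (31011 of 31053). On this annotation Notch1 (chromosome 2, 26457903 to 26516663, minus strand), Jag1 (chromosome 2, 137081456 to 137116644, minus) and Dll4 (chromosome 2, 119325784 to 119335962, plus) share a chromosome, as do Notch3 (chromosome 17, 32120820 to 32166852, minus) and Notch4 (chromosome 17, 34564268 to 34588503, plus). Notch2 lies on chromosome 3 (98013527 to 98150361, plus), Hey1 on chromosome 3 (8663359 to 8667256, minus), Hes1 on chromosome 16 (30064384 to 30067796, plus), Hey2 on chromosome 10 (30832359 to 30842801, minus) and Heyl on chromosome 4 (123233556 to 123249875, plus).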

Additional observations from a re-analysis of the deposited data

How the results depend on the processing

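In the endothelial-like comparison the calls of Notch1, Notch4, Dll4, Hey1, Notch2 and Heyl kept their direction and their side of the threshold in all 21 tested alternatives, which for Dll4 and Heyl says little, since each reached the minimum count through 1 side of the comparison. The 2 SMC comparisons depend on whether the library is used as a block. Without a block, 466, 721 and 3324 genes were called in Myh11-low against Myh11-high, cycling against Myh11-low and endothelial-like against SMC classes, and with the replicate block 3209, 3083 and 5167, with 3, 1 and 8 of the 10 genes among them. Settings that join the block with another class rule were chosen after seeing the data. With cycling cells held to 1 or no Myh11 UMI the block called 3140, 2376 and 5093 genes, and of the 10 genes 2 in the first comparison (Heyl no longer passed) and 1 in the second. With the Myh11 classes set by CPM it called 3443, 3197 and 5210, and of the 10 genes 4 in the first comparison (Notch3 passed as well, lower in Myh11-low cells) and 2 in the second. DESeq2's Wald test called 1321 and 1286 genes in the first 2 comparisons. The fit without a filter called 789 in the first, and overlapping classes called 231 in the second. Overlapping classes, which leave endothelial-like cells inside the Myh11-low class, also called 1 of the 10 genes in each SMC comparison, Dll4 in both, with a change of -1.66 in cycling against Myh11-low cells.

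Leaving out 1 sum changed the first count to between 65 (without Myh11-low replicate 2) and 377. It was 109 without Myh11-high replicate 2, 142 without Myh11-low replicate 1 and 218 without either endothelial-like sum. The second count went to between 319 (without Myh11-low replicate 1) and 680, with 361 without cycling replicate 2 and 373 without Myh11-low replicate 2. The third went to between 1512 (without endothelial-like replicate 2) and 3035, with 1634 without endothelial-like replicate 1. No other call among the 10 genes changed in these, except that Hey2 passed as higher in the endothelial-like class without cycling replicate 2. A sum left alone in its class is assumed to vary like the others, and leaving out a whole library left no test.

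Log2 fold changes that turned their sign were all of genes without a call in the unblocked fit. In cycling against Myh11-low cells, Notch3 was -0.11 with cycling cells held to 1 or no Myh11 UMI, -0.016 with DESeq2's size factors, -0.017 in its Wald test, -0.0027 with the block and -0.088 with block and held cycling cells, and ranged from -0.62 to 0.60 when a sum or library was left out. Hey1 was -0.0085 in the Wald test and -0.29 with overlapping classes, and ranged from -0.97 to 1.03. The ranges were -0.78 to 0.82 for Hes1, -0.097 to 0.75 for Hey2, -0.0038 to 0.090 for Notch2 and -0.037 to 0.17 for Jag1. In Myh11-low against Myh11-high cells, Hes1 was 0.0089 without a filter, 0.11 with the block, 0.11 with block and held cycling cells and 0.096 with block and CPM classes, and ranged from -0.79 to 1.24. Notch2 was -0.088 with CPM classes, -0.0091 with overlapping classes and -0.085 with block and CPM classes. Notch4 was 1.28 with overlapping classes and ranged from -0.20 to 0.14. The ranges were -1.09 to 0.57 for Notch3 and -0.011 to 1.57 for Hey1. The cause of these changes was not tested. In the endothelial-like sums Notch2 rested on 9 and 11 UMIs and Notch3 on 23 and 7.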
